A study of Mus musculus with 6 samples.

Results

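Rpl29 and Rpl3, a pair of genes for proteins of the large ribosomal subunit, are described here together with 3 processed copies, Gm8210 and Gm13841 of Rpl29 and Rpl3-ps1 of Rpl3. These 5 genes of the 49548 in the count table were named as members because parent and copy differed between CharmeKO and WT libraries, so the difference between genotypes in these 5 is given as a description and without a test. All 5 passed the filter, a minimum of 10 counts in 2 or more of the 6 libraries, as did 15789 genes in all. Because this filter takes either genotype, both copies of Rpl29 passed it through the CharmeKO libraries, in which they were high.

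Ribosomal proteins of the large subunit are made in the cytosol, carried into the nucleolus and built onto the ribosomal RNA, and most of them are needed in equal number in every ribosome. RPL3 reaches towards the peptidyl transferase centre, where peptide bonds form, while RPL29 is a small basic protein near the subunit surface that is also known as heparin/heparan sulfate interacting protein and binds these sugar chains at the surface of cells. Abundant mRNAs of this kind have repeatedly been reverse transcribed and inserted elsewhere in the genome, which leaves intronless processed pseudogenes that can be nearly identical in sequence to the parent mRNA.

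The libraries came from native cardiac fibroblasts (CFs), the stromal cells that make the extracellular matrix of the heart, of 3 WT and 3 CharmeKO hearts. All mice were C57BL/6J animals aged 5 weeks, and the CharmeKO line carries a PolyA signal inserted into the locus of Charme, a long non-coding RNA of cardiomyocytes. Cells of both groups were freshly dissociated with enzymes and depleted of hematopoietic lineages, although the labels also list a culture medium. mRNA was selected by its poly(A) tail and sequenced in directional libraries.

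Total counts ranged from 9595701 to 42101393 in WT and from 23550718 to 31048606 in CharmeKO libraries, and a count of 0 allows up to 3 counts, at most 0.313 CPM (each count relative to the sum of its library), for counting error only. Charme itself, the target of the insertion, was counted 26, 15 and 4 times in WT replicates 1, 2 and 3 and 7, 0 and 0 times in CharmeKO replicates 1, 2 and 3. All 10 fibroblast markers had counts in every library, with summed levels of 40503 to 43247 normalized CPM in WT and 33432 to 41859 in CharmeKO. Over all libraries the 8 endothelial markers summed to 6041 to 7287 CPM, the 8 mural markers to 2198 to 2684 CPM and the 8 leukocyte markers to 27.9 to 51.8 CPM. The 8 erythroid markers summed to 26797 to 39252 CPM in WT and 24423 to 31759 CPM in CharmeKO, so the labelled cell type was not alone. Of these 8, edgeR called Slc4a1 lower and 0 higher. The 8 cardiomyocyte markers summed to 252 to 321 CPM in WT and 370 to 568 CPM in CharmeKO, with counts for every gene of the list. Of these, edgeR called Myh6 and Tnni3 higher and 0 lower, at the adjusted p under 0.05 that 0.830% of all tested genes passed.

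The copies are almost the same sequence as the coding part of the parents, and within that part only a few bases set copy and parent apart. In the GENCODE M21 annotation of GRCm38, Rpl29 lies on chromosome 9 (plus strand) with 4 exons and a coding sequence of 483 bases. Gm8210 on chromosome 1 (plus strand) and Gm13841 on chromosome 5 (minus strand) are single-exon processed pseudogenes of 483 bases, which is the length of that coding sequence and holds no untranslated part. Over these bases Gm8210 and Gm13841 differ from each other at 0 positions and from Rpl29 at 3, C72A, C300T and T423C, counted from the A of the start codon with the base of the parent first. All 3 changes lie at the third position of a codon and leave the encoded residue the same. Windows around the 3 differences, coding bases 47 to 97, 275 to 325 and 398 to 448, are shown 5′ to 3′ with the differing base in capitals, parent before copy, and the Gm8210 lines are also those of Gm13841.
Rpl29 first window: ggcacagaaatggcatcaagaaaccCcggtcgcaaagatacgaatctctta
Gm8210 first window: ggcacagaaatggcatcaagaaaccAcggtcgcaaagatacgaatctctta
Rpl29 second window: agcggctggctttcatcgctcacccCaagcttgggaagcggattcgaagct
Gm8210 second window: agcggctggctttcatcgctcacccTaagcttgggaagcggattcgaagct
Rpl29 last window: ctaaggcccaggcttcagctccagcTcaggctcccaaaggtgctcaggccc
Gm8210 last window: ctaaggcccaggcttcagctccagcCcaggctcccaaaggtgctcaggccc

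Rpl3 lies on chromosome 15 (minus strand) with 10 exons and a coding sequence of 1212 bases, and Rpl3-ps1 is a processed pseudogene of 1210 bases in 1 exon on chromosome X (plus strand). Rpl3-ps1 differs from Rpl3 at C57A and T786C, again at the third position of a codon, which leaves the residue the same. The windows around both differences, coding bases 32 to 82 and 761 to 811, are shown with the differing base in capitals, parent before copy.
Rpl3 first window: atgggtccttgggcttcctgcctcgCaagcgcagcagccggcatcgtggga
Rpl3-ps1 first window: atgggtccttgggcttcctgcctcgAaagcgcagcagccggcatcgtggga
Rpl3 second window: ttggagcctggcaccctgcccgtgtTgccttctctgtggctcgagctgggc
Rpl3-ps1 second window: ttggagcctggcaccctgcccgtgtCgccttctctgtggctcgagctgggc

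**Figure D1:**
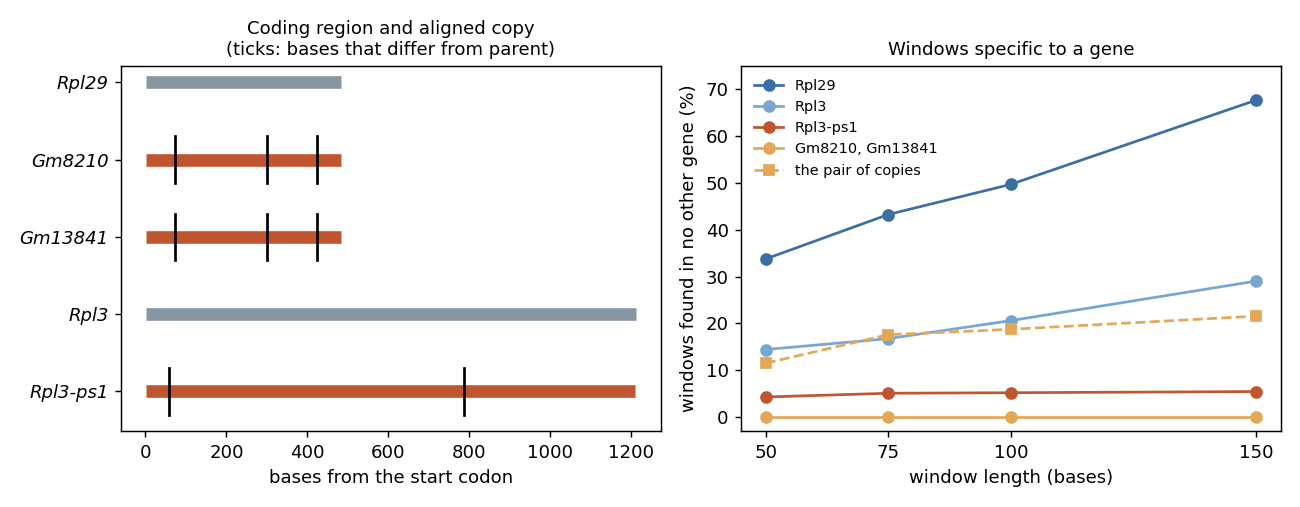
The left panel draws the coding region of each parent (grey) and the aligned copy (orange) in bases from the start codon, with ticks at the 3 positions at which Gm8210 and Gm13841 differ from Rpl29 and the 2 at which Rpl3-ps1 differs from Rpl3. The right panel plots the percent of all windows of 50, 75, 100 or 150 bases in a transcript that occur in no other gene searched. The genes searched were the other members and the models aligned to Rpl29 or Rpl3. This percent was 0% for Gm8210 and Gm13841 at every length.

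How much of each gene can be counted depends in part on these bases, because the counter used by the authors keeps reads with a single best position. Windows of a fixed length were therefore taken along each annotated transcript on GRCm38. They were looked up in the transcripts of the other members and of the models aligned to Rpl29 or Rpl3, not of all genes. Of 659 windows of 75 bases along the Rpl29 transcript, 43.2% occurred in no other gene searched, but within its coding sequence the share was 14.9%. For Rpl3 these shares were 16.8% and 6.59%, and for Rpl3-ps1 the share was 5.11%. Neither Gm8210 nor Gm13841 had any window of its own, while 17.6% of the windows of 75 bases were held by this pair and by no other gene searched. At 150 bases the shares were 67.6% for Rpl29, 29.0% for Rpl3, 5.47% for Rpl3-ps1 and 21.6% for the pair. The reads were aligned to GRCm39 by the submitters' notes, and their length is not given in the sources used here. These windows therefore describe the GRCm38 sequences and not the reads themselves. Counts on Gm8210 and on Gm13841 were nonetheless assigned separately, and which bases of the reads set them apart was not tested.

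Rpl29, as counted from uniquely placed reads, was high in WT native CFs and 5.86 times lower in CharmeKO. In WT replicates 1, 2 and 3 it had 9948, 6405 and 2305 counts, or 234, 244 and 248 CPM after normalization by the trimmed mean of M values (TMM). In CharmeKO replicates 1, 2 and 3 it had 1156, 948 and 1356 counts, or 40.4, 38.8 and 44.6 CPM. The lowest WT library was 5.24 times the highest CharmeKO library, and both groups were narrow, with means of 242 ± 7.21 and 41.3 ± 3.01 CPM (SD, n = 3 each). The log2 fold change from the edgeR fit of all genes was −2.55 (standard error 0.12). In sequencing of bulk RNA, fewer cells of a type and less RNA per cell cannot be told apart. Whether reads of Rpl29 were placed differently in the 2 genotypes was not tested.

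Gm8210 was close to absent in WT. Its 3 WT libraries held 5, 3 and 0 counts, while CharmeKO replicates 1, 2 and 3 held 489, 590 and 563, which were 17.1, 24.1 and 18.5 CPM. No WT library reached 0.12 CPM, and the lowest CharmeKO library was 145 times the highest WT library. Summed over the libraries and scaled to their totals, the ratio of CharmeKO to WT was 201, with an exact 95% interval of 102 to 465 that covers counting error only, and the fitted log2 fold change was 7.56 (standard error 0.34).

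Gm13841 moved the same way at a lower level. Its counts were 7, 13 and 0 in WT and 293, 216 and 355 in CharmeKO, where it reached 10.2, 8.84 and 11.7 CPM. The ratio of the summed and scaled counts was 42.2 (exact 95% interval 27.2 to 69.5), with a fitted log2 fold change of 5.30 (standard error 0.47). All 3 CharmeKO libraries held more counts on Gm8210 than on Gm13841, by factors of 1.67, 2.73 and 1.59, whereas in the WT libraries with counts on either, replicates 1 and 2, there were fewer on Gm8210. The WT side of both copies rests on 8 and 20 counts in all.

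Rpl3 differed far less between the genotypes than Rpl29. It had 21103, 13411 and 3977 counts in WT, or 496, 510 and 428 CPM, and 9558, 9117 and 11946 counts in CharmeKO, or 334, 373 and 393 CPM. The groups did not overlap, but the lowest WT library was 1.09 times the highest CharmeKO library. The means were 478 ± 44.1 and 367 ± 30.1 CPM (SD, n = 3 each), with a log2 fold change of −0.38 (standard error 0.13).

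Rpl3-ps1, in contrast to the copies of Rpl29, was counted in every WT library. It had 97, 88 and 31 counts in WT, or 2.28, 3.35 and 3.33 CPM, and 891, 669 and 988 counts in CharmeKO, or 31.1, 27.4 and 32.5 CPM. The lowest CharmeKO library was 8.17 times the highest WT library. The ratio of summed and scaled counts was 11.5 (exact 95% interval 10.03 to 13.3), and the log2 fold change was 3.38 (standard error 0.19).

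**Figure D2:**
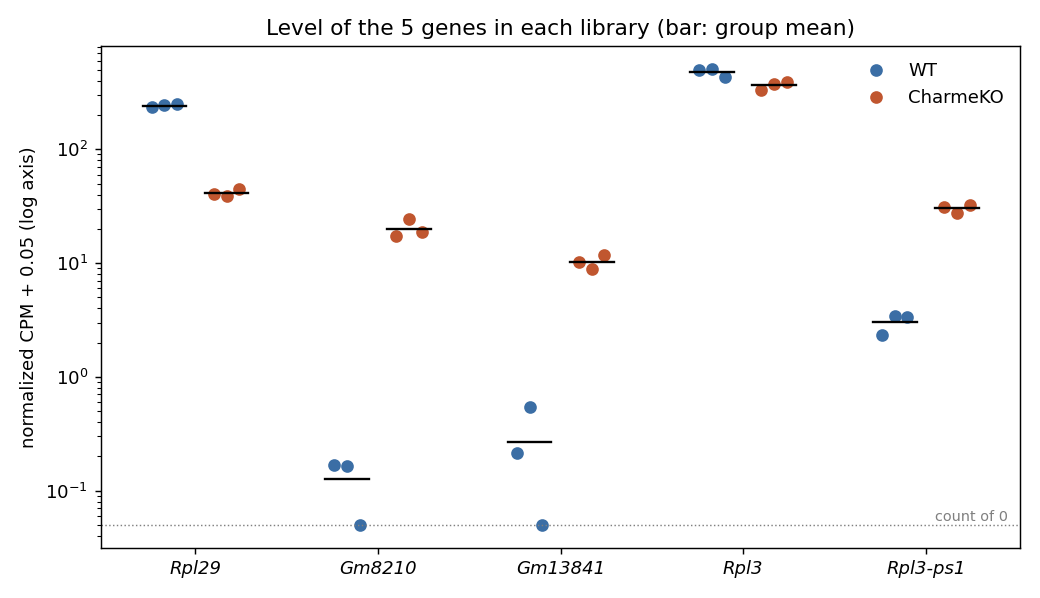
Normalized CPM of each gene in the 3 WT (blue) and 3 CharmeKO (orange) libraries on a log axis, with 0.05 CPM added so that counts of 0 can be drawn and black bars at the group means. Rpl29 is at 234 to 248 CPM in WT and 38.8 to 44.6 CPM in CharmeKO, Rpl3 is slightly lower in CharmeKO, and the 3 copies are higher in every CharmeKO library than in any WT library.

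The WT and CharmeKO values of all 5 genes did not overlap. The same was true of 18.2% of all tested genes, and nothing is read from this since the genes were named for their difference. A fitted log2 fold change above 3, as in the 3 copies, was found in 0.298% of the tested genes, and one below −2, as in Rpl29, in 0.709%. Per kilobase of annotated transcript, Rpl29 and Rpl3 stood at 330 and 354 CPM in WT and at 56.3 and 271 CPM in CharmeKO. On the same scale the copies reached 41.2 CPM (Gm8210), 21.2 CPM (Gm13841) and 25.1 CPM (Rpl3-ps1) in CharmeKO, with the caveat that few windows of a copy can be assigned to it.

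In 2 libraries, transcripts of Xist, the RNA that coats the inactive X chromosome, and of the Y-linked gene Ddx3y were both found above 2 CPM. CharmeKO replicate 1, which also held the 7 counts of Charme, had 13553 counts of Xist and 59 of Ddx3y, and WT replicate 2 had 67 and 1502. Whether each of these libraries stems from a single heart was not tested. Without CharmeKO replicate 1 the log2 fold changes were −2.53 for Rpl29, 7.66 for Gm8210, 5.31 for Gm13841, −0.32 for Rpl3 and 3.36 for Rpl3-ps1. Without WT replicate 2 they were −2.55, 7.64, 6.24, −0.34 and 3.53 in the same order. Since Rpl3-ps1 is X-linked, its levels were also set beside Xist, which exceeded 10 CPM in WT replicate 1 and CharmeKO replicates 1 and 2. Among these libraries Rpl3-ps1 had a mean of 2.28 CPM in the WT library and 29.2 CPM in the 2 CharmeKO libraries, and among the others the means were 3.34 and 32.5 CPM. The log2 ratios within the 2 sets of libraries, chosen after the data were seen, were 3.68 and 3.28.

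Counted within each library, the share of a copy in its family does not depend on scaling to other genes. In WT, 99.9% ± 0.125 (SD, n = 3) of the counts on Rpl29, Gm8210 and Gm13841 fell on Rpl29, and in CharmeKO 57.8% ± 3.23. Gm8210 took 25.2%, 33.6% and 24.8% of the family in CharmeKO replicates 1, 2 and 3, and at most 0.0502% in WT. The exact binomial 95% intervals of these CharmeKO shares ran from 23.0% to 35.9% in all, and the 0 counts of WT replicate 3, out of 2305, allow a share of up to 0.160% at the upper bound of the same interval. Gm13841 took 15.1%, 12.3% and 15.6% in CharmeKO and at most 0.202% in WT. Replicate 2 of CharmeKO thus had the highest share of Gm8210 and the lowest share of Gm13841.

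In the Rpl3 family the parent kept most of the counts in both genotypes. Rpl3-ps1 held 0.458%, 0.652% and 0.773% of the counts on Rpl3 and Rpl3-ps1 in the WT libraries and 8.53%, 6.84% and 7.64% in the CharmeKO libraries. The group means were 0.628% ± 0.159 (SD, n = 3) and 7.67% ± 0.846.

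**Figure D3:**
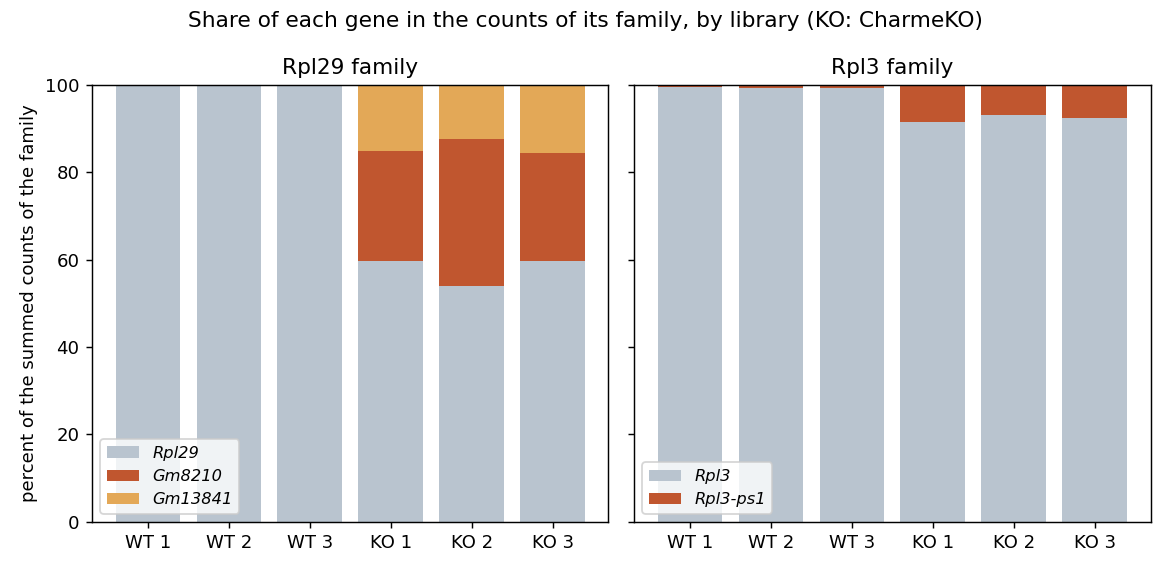
Stacked bars give the percent of the summed counts of each family that fell on the parent (grey) and on its copies (orange and yellow) in each library, for Rpl29 with Gm8210 and Gm13841 on the left and Rpl3 with Rpl3-ps1 on the right. The copies take 40.4 to 46.0% of the Rpl29 family and 6.84 to 8.53% of the Rpl3 family in the CharmeKO libraries (KO), and less than 1% in the WT libraries.

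The gain of the copies was smaller than the loss of the parents. Rpl29 was 201 CPM lower in CharmeKO and its 2 copies together were 29.9 CPM higher. Their sums were 242 ± 7.14 CPM for WT and 71.4 ± 3.57 CPM for CharmeKO (SD, n = 3 each), so 29.5% of the WT level was counted. With the 81 other aligned copies in the table added, the sums were 248 ± 7.08 and 75.8 ± 2.87 CPM. For Rpl3 the parent was 111 CPM lower and the copy 27.3 CPM higher, and their sum was 481 ± 43.9 CPM in WT and 397 ± 30.4 CPM in CharmeKO, 82.5% of the WT level. WT sums ranged from 431 to 514 CPM and CharmeKO sums from 365 to 425 CPM. Reads that fit several of these genes equally well were not counted by the authors and are in none of these sums.

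The genome holds many more copies of both genes, and they served to ask whether the copies as a class were higher in CharmeKO. Aligned with blastn at 80% identity or more over at least 50% of the parent coding sequence, 115 gene models matched Rpl29 and 31 matched Rpl3, of which 83 and 27 are in the count table. All of those in the table were annotated as processed pseudogenes, except 1 protein-coding gene and 1 unprocessed pseudogene among those aligned to Rpl29, which together held 12 counts, and all are called copies here. Beside the members, 29 of 81 copies of Rpl29 and 3 of 26 copies of Rpl3 had any count, and 5 and 1 of them were tested. Among these 6 copies 0 rose and 1 fell, where edgeR called 0.830% of all tested genes, 0.418% higher and 0.412% lower. Gm5561, a processed copy of Rpl29 on chromosome 1 with 98.3% identity, had 36, 53 and 13 counts in WT and 0, 0 and 2 counts in CharmeKO (Benjamini-Hochberg adjusted p = 0.0211 in edgeR), with every CharmeKO library below every WT library. Its call was lost without WT replicate 3, without CharmeKO replicate 1 and without CharmeKO replicate 2. Scaled to the totals, the 102 counts of WT were 52.2 times the 2 counts of CharmeKO (exact 95% interval 14.1 to 437, counting error only).

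The other tested copies did not pass the threshold. Gm11799 averaged 1.02 ± 0.328 CPM over the WT and 0.412 ± 0.196 CPM over the CharmeKO libraries (SD, n = 3 each). Gm10709, with 99.2% identity to Rpl29, had 14, 27 and 1 counts in WT and 5, 2 and 3 in CharmeKO. For 4931440P22Rik the means were 1.08 ± 0.657 and 1.61 ± 0.385 CPM, and for Gm10548, which aligns over 55.5% of the coding sequence, 0.648 ± 0.188 and 0.962 ± 0.895 CPM. Gm5879, the tested copy of Rpl3, had 0.912 ± 0.400 CPM and 0.923 ± 0.338 CPM in the same order. The adjusted p-values of these 5 genes in edgeR lay between 0.390 and 0.974.

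The copies were also grouped by the 3 bases that set Gm8210 and Gm13841 apart from Rpl29, at positions defined by these 2 members themselves. Of all 115 aligned models these 2 alone carry the copy base at all 3 positions. The 30 copies in the table with 0 of these bases held 151 counts in WT and 115 in CharmeKO, the 23 copies with 1 held 24 and 22, and the 28 copies with 2 held 324 and 227. The 2 copies with all 3 bases held 28 counts in WT and 2506 in CharmeKO. Likewise, of the 27 aligned copies of Rpl3 in the table, Rpl3-ps1 alone has the copy base at both positions, with 216 and 2548 counts, while the 8 copies with 1 of them held 70 and 91 counts and the 18 copies with 0 of them held 0. These are descriptions, since the positions were taken from the members and the members were named from the same counts. The groups with every copy base hold members only, so their contrast with the other groups restates that choice.

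**Figure D4:**
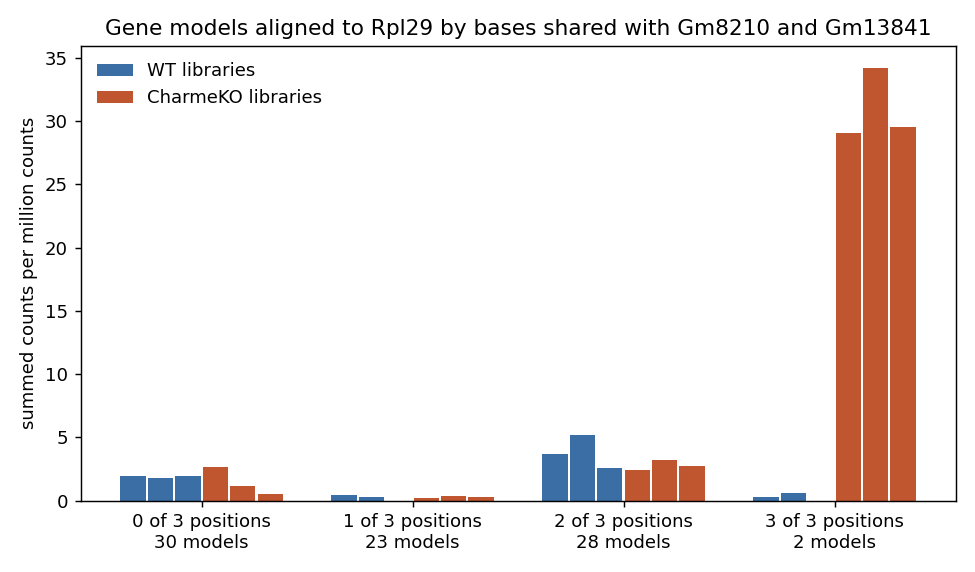
Bars give the summed counts on the gene models aligned to Rpl29, as CPM of the library total, in the 3 WT (blue) and 3 CharmeKO (orange) libraries, with the 83 models in the table grouped by how many of the 3 differing positions carry the base of Gm8210 and Gm13841. The group with 3 of 3 positions, which is Gm8210 and Gm13841 themselves, holds 28 counts in WT and 2506 in CharmeKO, against 324 and 227 in the group with 2 of 3 positions.

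Processed copies of other ribosomal protein genes were compared in the same fit. Of 286 genes in the table named as -ps copies of cytosolic ribosomal proteins other than RPL29 and RPL3, 185 had a count and 69 were tested, and 0 passed the threshold in edgeR, 0 in DESeq2 and 2 at an unadjusted p under 0.05, which 12.8% of all tested genes had. Their median log2 fold change was 0.20, against 0.01 over all tested genes, and 46 had higher and 23 lower values in CharmeKO. The 3 most abundant were Rpl38-ps2, with means of 16.3 ± 2.06 CPM for WT and 20.5 ± 3.13 CPM for CharmeKO (SD, n = 3 each), Rpl17-ps10 at 11.4 ± 2.58 and 13.5 ± 1.47 CPM, and Rps16-ps2 at 11.5 ± 3.00 and 11.1 ± 2.47 CPM. In all 3 the libraries of the genotypes overlapped. The values of the 69 copies ran from −4.03 in Rpl13-ps1 to 1.56 in Rpl5-ps2 on the log2 scale, at a median level of 0.958 CPM. Rpl3-ps1 was named for its difference, so nothing is read from its 3.38 lying above them.

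The functional ribosomal protein genes other than Rpl29 and Rpl3 had mostly higher values in CharmeKO. Higher values were found for 47 of 49 tested genes of the large subunit (median log2 fold change 0.22) and 35 of 36 of the small subunit (median 0.21), again against 0.01 over all tested genes. By edgeR's quasi-likelihood test 0 of these 85 passed the threshold. In that test 34 had an unadjusted p under 0.05, all with higher values, as did 5.90% of all tested genes in that direction. DESeq2 called 12 of the 85 higher and 0 lower. Of all tested genes it called 2.50% in either direction, 154 higher and 240 lower. In 43 of the 85 all CharmeKO libraries lay above all WT libraries, as in 9.57% of all tested genes, and in 0 they lay below, as in 8.59%. The most abundant genes of the large subunit were Rplp0 (log2 fold change −0.12), Rpl4 (0.14), Rpl13 (0.29) and Rpl8 (0.06), and those of the small subunit were Rps14 (0.39), Rpsa (0.20), Rps2 (0.16) and Rack1 (0.09), with adjusted p-values in edgeR from 0.346 to 0.913.

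Set against the 45 other genes of the large subunit with a mean of at least 10 CPM, Rpl29 and Rpl3 lay lower in every CharmeKO library than in any WT library. The difference of Rpl29 from the median of the others on the log2(CPM + 1) scale was −0.15 ± 0.03 (SD, n = 3) in WT and −2.91 ± 0.05 in CharmeKO. For Rpl3 these differences were 0.91, 0.94 and 0.64 in WT and 0.12, 0.27 and 0.24 in CharmeKO. The values are not corrected for length, so only their shift between libraries can be read.

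**Figure D5:**
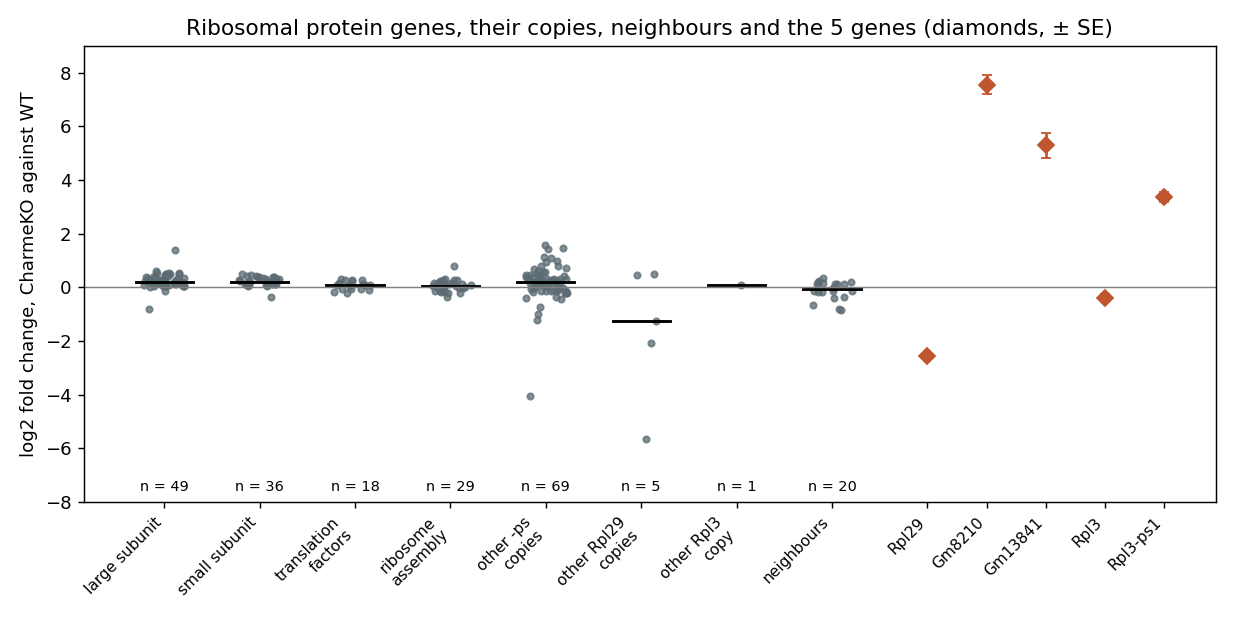
Each grey point is the log2 fold change of a tested gene, CharmeKO against WT, in the lists named on the horizontal axis with their n, black bars are list medians, and orange diamonds are the 5 genes with their standard errors. The medians of both ribosomal subunits lie at 0.22 and 0.21, Rpl29 is at −2.55, and Gm8210, Gm13841 and Rpl3-ps1 are at 7.56, 5.30 and 3.38.

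Genes that act on RPL3 or stand in for it gave the following values. Rpl3l, the paralogue of Rpl3 found in heart and skeletal muscle, had 2.87, 1.48 and 1.40 CPM in WT and 6.22, 4.91 and 4.41 CPM in CharmeKO, without overlap. Its log2 fold change of 1.38 (standard error 0.33) did not pass the threshold in edgeR (adjusted p = 0.108) and did in DESeq2 (adjusted p = 0.0115). The summed cardiomyocyte markers moved with it, from 252 to 321 CPM in WT and 370 to 568 CPM in CharmeKO, and their part in this value was not tested. Grwd1, a chaperone of newly made RPL3, had means of 6.81 ± 0.897 and 6.46 ± 1.32 CPM in WT and CharmeKO (SD, n = 3 each), and Mettl18, which methylates RPL3, of 1.07 ± 0.219 and 1.91 ± 0.231 CPM (adjusted p = 0.906 and 0.419 in edgeR). Of 18 translation factors and 29 ribosome assembly genes, 0 passed the threshold in edgeR and 0 in DESeq2, 3 had an unadjusted p under 0.05, against 12.8% of all tested genes, and the medians were 0.09 and 0.07.

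The genes next to the 5 members were examined to see whether a wider stretch moved with them. The 2 nearest tested genes on each side, by order on GRCm38, made 20 genes with log2 fold changes between −0.85 and 0.37, of which 0 passed the threshold in edgeR and 0 in DESeq2, and 4 had an unadjusted p under 0.05, all with lower values, as did 6.87% of all tested genes in that direction. Around Rpl29 lie Dusp7, a phosphatase of MAP kinases (−0.40), Poc1a, a centriole protein (−0.16), Acy1, an aminoacylase (0.15), and Abhd14a (−0.67). Without a filter on low counts edgeR called Abhd14a and Cit, both lower, where it called 446 of all 24579 genes lower. Gm8210 lies within Fhl2, which encodes a LIM domain protein of the heart, on the opposite strand and outside its exons. The WT and CharmeKO means of Fhl2 were 19.9 ± 4.32 and 21.7 ± 1.55 CPM (SD, n = 3 each), a log2 fold change of 0.12, and the other genes around Gm8210, AI597479, Nck2 and Gm38228, were at 0.24, −0.15 and −0.14.

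Beside Gm13841 lie Bicdl1 (0.19), Rab35, a GTPase of endosomes (−0.11), Cit, the citron kinase of cell division (−0.80), and Prkab1, a subunit of AMP-activated kinase (−0.03). Beside Rpl3 lie Pdgfb, a growth factor (−0.35), and Cbx7, a Polycomb protein (0.12), and within it the small nucleolar RNAs Snord83b (0.17) and Snord43 (−0.85). Both of these RNAs were under 1 CPM and share the strand of Rpl3, so that reads cannot be fully told apart. By gene start they filled both places on their side of Rpl3, so no gene beyond it there was examined. Rpl3-ps1 lies between Usp9x, a deubiquitinase (−0.16), with AA414768 (0.21), and Ddx3x, an RNA helicase (0.37), with Gm5380 (0.12). Their adjusted p-values in edgeR's quasi-likelihood test ranged from 0.195 for Abhd14a upwards.

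The genes most like each member in pattern were taken as the 3 with the highest Pearson correlation of log2(CPM + 1) among 15788 other tested genes. The correlations run over 6 libraries in 2 groups, so that a gene with a clear gap between the groups scores highly whatever its size, and they are given as a description. For Rpl29 these were Cxcl10, a chemokine (r = 0.999), 9930111J21Rik2 (0.998) and Akr1e1, an aldo-keto reductase (0.996). Cxcl10 was at 88.5, 88.9 and 90.6 CPM in WT and 21.1, 20.4 and 25.0 CPM in CharmeKO, and 9930111J21Rik2 had a log2 fold change of −7.05. For Gm8210 they were Rbpj-ps3 (0.998), Rpl5 (0.997) and Gm3716 (0.997). Rpl5, a ribosomal protein that carries 5S RNA, had a log2 fold change of 0.29, against 7.56 in Gm8210. For Gm13841 they were Gm8741 (0.995), Eno1b (0.994) and Cyp4a10 (0.994), with log2 fold changes of 6.79, 6.86 and 7.10.

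Rpl3-ps1 shared Cyp4a10 (0.995) and Eno1b (0.994) with Gm13841. Eno1b was at 0.235, 0.152 and 0.108 CPM in WT and 24.0, 19.3 and 24.3 CPM in CharmeKO, whereas Cyp4a10, a fatty acid hydroxylase, had 0 counts in all 3 WT libraries and had at most 0.664 CPM in CharmeKO. For Rpl3, whose difference was smaller, the closest were Slc66a2 (0.987), Neil2, a DNA glycosylase (0.983), and Vwf, the von Willebrand factor of endothelium (0.983). Vwf is 1 of the 8 endothelial markers. Rpl29 and Rpl3 shared none of their 3 closest genes.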

How the data were processed

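mRNA of 3 WT and 3 CharmeKO native CF samples was analysed. The deposited values are raw counts per gene, made by the authors with STAR (version not given in the sources used here) from Q30-filtered reads aligned to GRCm39, counted on an Ensembl release to which Charme was added, on the reverse strand. The paper spells the assembly differently from GRCm39, and the submitters' processing notes also list GRCh38. Which build the Ensembl release belongs to was not tested. STAR counts uniquely placed reads only. Counts were fitted over all 15789 tested genes with TMM and the quasi-likelihood test of edgeR 4.0.16 in R 4.3.3 (adjusted p under 0.05), with DESeq2 1.42.0 as an alternative, after a test on simulated data. Copies were found with blastn 2.17.0 in GENCODE M21 transcripts on GRCm38, which hold 99.8% of the tested genes. As the builds differ, no coordinates are given. The members and the lists were chosen with earlier results of these data known. Named beside the members were their tested copies, the most abundant ribosomal protein genes and -ps copies, Rpl3l, Grwd1, Mettl18, the nearest genes and the genes of highest correlation, of which 1 is not reported here. No library was a duplicate of another. Replicates are separate hearts as far as the methods state. Figures were drawn with matplotlib 3.10.9.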

Additional observations from a re-analysis of the deposited data

How the results depend on the processing

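Under DESeq2, other size factors, other filters and each library left out in turn, the log2 fold changes of the 5 genes kept their sign. With 1 library left out they ran from −2.61 to −2.51 for Rpl29, 7.37 to 7.82 for Gm8210, 4.89 to 6.24 for Gm13841, −0.46 to −0.32 for Rpl3 and 3.18 to 3.53 for Rpl3-ps1. Added after the data were seen, log2 ratios of mean CPM were taken by Xist. Below 10 CPM, with 2 WT libraries and 1 CharmeKO library, they were −2.46 for Rpl29, 8.34 for Gm8210, 5.56 for Gm13841, −0.26 for Rpl3 and 3.28 for Rpl3-ps1. Above it, with 1 WT library and 2 CharmeKO libraries, they were −2.56, 7.45, 5.86, −0.49 and 3.68 in the same order. The WT libraries with Xist below 10 CPM held 3 and 0 counts of Gm8210. The CharmeKO share of Gm13841 was 19.8% with Rpl29 and Gm13841 alone as the family. Leaving out 1 library gave mean shares of 25.0 to 29.4% for Gm8210, 13.7 to 15.4% for Gm13841 and 7.24 to 8.08% for Rpl3-ps1 in CharmeKO, and 0.0234 to 0.0485%, 0.0351 to 0.136% and 0.555 to 0.713% in WT.

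Over all genes edgeR called 131 and DESeq2 394 of 15789, and edgeR without a filter 699 of 24579, 253 higher and 446 lower. With 1 library left out edgeR called between 61 (without CharmeKO replicate 1) and 349 (without WT replicate 2). Of the other ribosomal protein genes, 12 of 85 were called by DESeq2, 11 of 86 without a filter and between 0 and 4 of 85 with 1 library left out. Of the neighbours, 2 of 20 were called without a filter and between 0 and 1 with 1 library left out, and of the other processed copies between 0 and 1. The cause of these moves was not tested.

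The replicate numbers do not pair the samples by any label. Deviations of same-numbered libraries from their group means correlated at 0.137, 0.00727 and 0.106, and WT replicate 2 correlated best with CharmeKO replicate 3, at 0.0300. With the replicate number as a block edgeR called 302 genes, all 131 among them, and 4 other ribosomal protein genes, and the log2 fold changes of the members were −2.55 for Rpl29, 7.55 for Gm8210, 5.31 for Gm13841, −0.38 for Rpl3 and 3.37 for Rpl3-ps1. The 8 and 20 WT counts of Gm8210 and Gm13841 limit how well their ratios are known.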

Other observations

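Among the copies of Rpl29 that were too low to be tested, 2 named here after their values were seen lie on opposite sides. Gm6344, on chromosome 13 and with 99.4% identity, had 27, 7 and 4 counts in WT and 2, 1 and 1 counts in CharmeKO. Gm14036, on chromosome 2, had 3, 0 and 1 counts in WT and 13, 8 and 9 in CharmeKO. Both carry the base of Gm8210 and Gm13841 at 2 of the 3 positions that set these apart from Rpl29. Rpl13-ps1, a tested copy of another ribosomal protein gene, had 14, 12 and 6 counts in WT and 1, 0 and 1 in CharmeKO (adjusted p = 0.159 in edgeR).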
